A study of Mus musculus with 8 samples.

Results

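A set of 10 imprinted genes that take part in growth control was followed through every library of a study of blood stem and progenitor cells. They were Dlk1 (ENSMUSG00000040856), Meg3 (ENSMUSG00000021268), Ndn (ENSMUSG00000033585), H19 (ENSMUSG00000000031), Igf2 (ENSMUSG00000048583), Cdkn1c (ENSMUSG00000037664), Peg3 (ENSMUSG00000002265), Grb10 (ENSMUSG00000020176), Plagl1 (ENSMUSG00000019817) and Mest (ENSMUSG00000051855). Their rows were found by matching Ensembl mouse identifiers to these symbols, and all 10 of 10 were present among 37991 gene rows. RNA came from Flt3- LSK cells of C57BL/6J bone marrow, a sorted fraction in which stem cells and the earliest progenitors are found, and 24000 cells were sorted per sample. WT samples carried floxed Runx1 alleles (Runx1f/f), and the Mut label stands for Runx1 deficiency in the series' design text. The sources used here do not give the Cre that would drive deletion, the deleted exons, or the age and sex of the mice. Each of 2 WT and 2 Mut-labelled samples was read as measured in a polyA-selected (mRNA) library and in a total RNA library, 8 libraries in 4 groups of 2. Where 2 values are given for a group they are in the order replicate 1, replicate 2. The samples of a group are not described as separate mice, so each p-value reflects the spread between samples that may differ only technically.

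An imprinted gene is read from the copy inherited from a single parent, and the other copy is kept silent by DNA methylation or by a non-coding RNA. Imprinted genes lie in clusters, and many act on growth, with maternally and paternally expressed members often having opposed effects. In blood stem cells several of them have been linked to quiescence. Dlk1, Igf2, Ndn, Peg3, Plagl1 and Mest are paternally expressed in most tissues, and Meg3, H19, Cdkn1c and Grb10 maternally. Read counts here do not separate the parental copies, so a level below is the sum of both.

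The promoters of the 3 genes with calls in the mRNA libraries are shown because these genes carry the main differences below. RefSeq sequences of build GRCm38.p6, from 250 bases before to 50 bases after an annotated start, were found for 8 of the 10 genes. H19 and Cdkn1c had no entry. The hexamer TGTGGT, the core recognised by RUNX proteins, or its reverse complement ACCACA, is in capitals where it occurs. The Dlk1 promoter lies at chr12:109452573-109452872 on the plus strand, that of Meg3 (the first of its starts) at chr12:109540746-109541045 on the plus strand and that of Ndn at chr7:62348027-62348326 on the plus strand.
Dlk1: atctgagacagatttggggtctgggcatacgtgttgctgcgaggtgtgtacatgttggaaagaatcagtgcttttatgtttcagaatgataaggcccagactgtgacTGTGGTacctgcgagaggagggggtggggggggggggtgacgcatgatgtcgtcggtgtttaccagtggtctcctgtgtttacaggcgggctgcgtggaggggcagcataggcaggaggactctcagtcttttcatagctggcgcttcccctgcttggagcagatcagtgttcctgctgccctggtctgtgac
Meg3: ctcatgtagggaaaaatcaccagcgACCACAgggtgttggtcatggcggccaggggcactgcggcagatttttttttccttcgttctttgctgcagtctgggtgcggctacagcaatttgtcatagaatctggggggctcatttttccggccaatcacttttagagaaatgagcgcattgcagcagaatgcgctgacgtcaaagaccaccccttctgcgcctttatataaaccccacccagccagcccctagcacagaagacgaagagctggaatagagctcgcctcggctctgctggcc
Ndn: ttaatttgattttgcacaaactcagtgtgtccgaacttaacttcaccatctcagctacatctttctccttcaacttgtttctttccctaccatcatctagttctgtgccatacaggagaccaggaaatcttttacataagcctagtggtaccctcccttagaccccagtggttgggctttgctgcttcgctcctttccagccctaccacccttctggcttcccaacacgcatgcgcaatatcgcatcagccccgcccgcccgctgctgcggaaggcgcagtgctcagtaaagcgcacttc
The match in Dlk1 begins at position -143 from the start, and the match in Meg3 at position -225. No match was found in the window of the other Meg3 start or in the Ndn window, nor in any window of the 5 other genes. The 8 genes had 15 windows between them, and 2 of these 15 windows held the hexamer, in 2 of the 8 genes. Of all 32817 promoter windows of this length, 5500 (16.8%) held it on either strand, which is a share of windows and not of genes. The 3 windows contain 9, 13 and 11 CG dinucleotides, against a median of 7 over all windows. A match of letters is a description of the window alone.

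Gene counts per library ranged from 35096252 to 37924699 in mRNA libraries and from 967694 to 1218437 in total RNA libraries. A floor of 3 counts equals 0.0785 to 0.0857 CPM (the usual depth-scaled count, here on TMM-adjusted library sizes) in mRNA libraries and 2.51 to 3.23 CPM in total RNA libraries. Runx1 itself was higher in the libraries labelled Mut (203.8 ± 5.34 against 845 ± 136 CPM, SD, n = 2 each, log2 fold change 2.05, edgeR adjusted p = 0.00753). The direction is opposite to a loss of Runx1 RNA. A count over a whole gene cannot check a deletion of part of it, so the word Mut-labelled is used for these samples and each direction given depends on that label. Stem and progenitor markers were present: Kit, Cd34 and Ly6a did not pass the test, while Procr and Mecom fell and Cd48, Tek and Esam rose. Flt3, absent from the surface of the sorted cells by the gate, had 2005 to 5928 counts of RNA.

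In the mRNA libraries, 3 of the 10 imprinted growth-control genes were called, against 3.64% of 17128 genes tested. Dlk1 and Meg3 rose (1.75% of all genes tested were called higher) and Ndn fell (1.89% were called lower). A gene was called at a Benjamini-Hochberg adjusted p under 0.05 over all genes in edgeR's two-sided quasi-likelihood test. All 10 genes passed the filter on low counts. Peg3, Plagl1, Igf2 and H19 passed it only through the WT pair. Their Mut-labelled counts were 0 and 0, 5 and 5, 16 and 0, and 0 and 19. Genes that pass in this way tend to read lower in Mut-labelled libraries because of the filter itself. In 7 of them both Mut-labelled libraries were below both WT libraries (23.1% of all genes tested), in 2 both were above (21.4%), and in Mest the groups overlapped. The median log2 fold change of the 10 genes was -1.70, beside -0.01 over all genes tested. The 7 lower genes and the median of -1.70 include Peg3, Plagl1, Igf2 and H19, so neither is a test of the set. ERCC counts were 0.651 and 0.313% of gene counts in the WT pair, and 0.891 and 0.381% in the Mut-labelled pair, of mRNA libraries. In total RNA libraries they were 0.414 and 0.564% in the WT pair, and 0.772 and 1.36% in the Mut-labelled pair. Replicates of a group thus differed in this share, with replicate 1 higher in mRNA and replicate 2 higher in total RNA libraries. Scaling by ERCC counts moved the median over all genes tested to -0.38 in mRNA and -1.10 in total RNA libraries. With that scaling 16 genes were called higher and 154 lower in mRNA, and 13 higher and 360 lower in total RNA libraries.

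**Figure D1:**
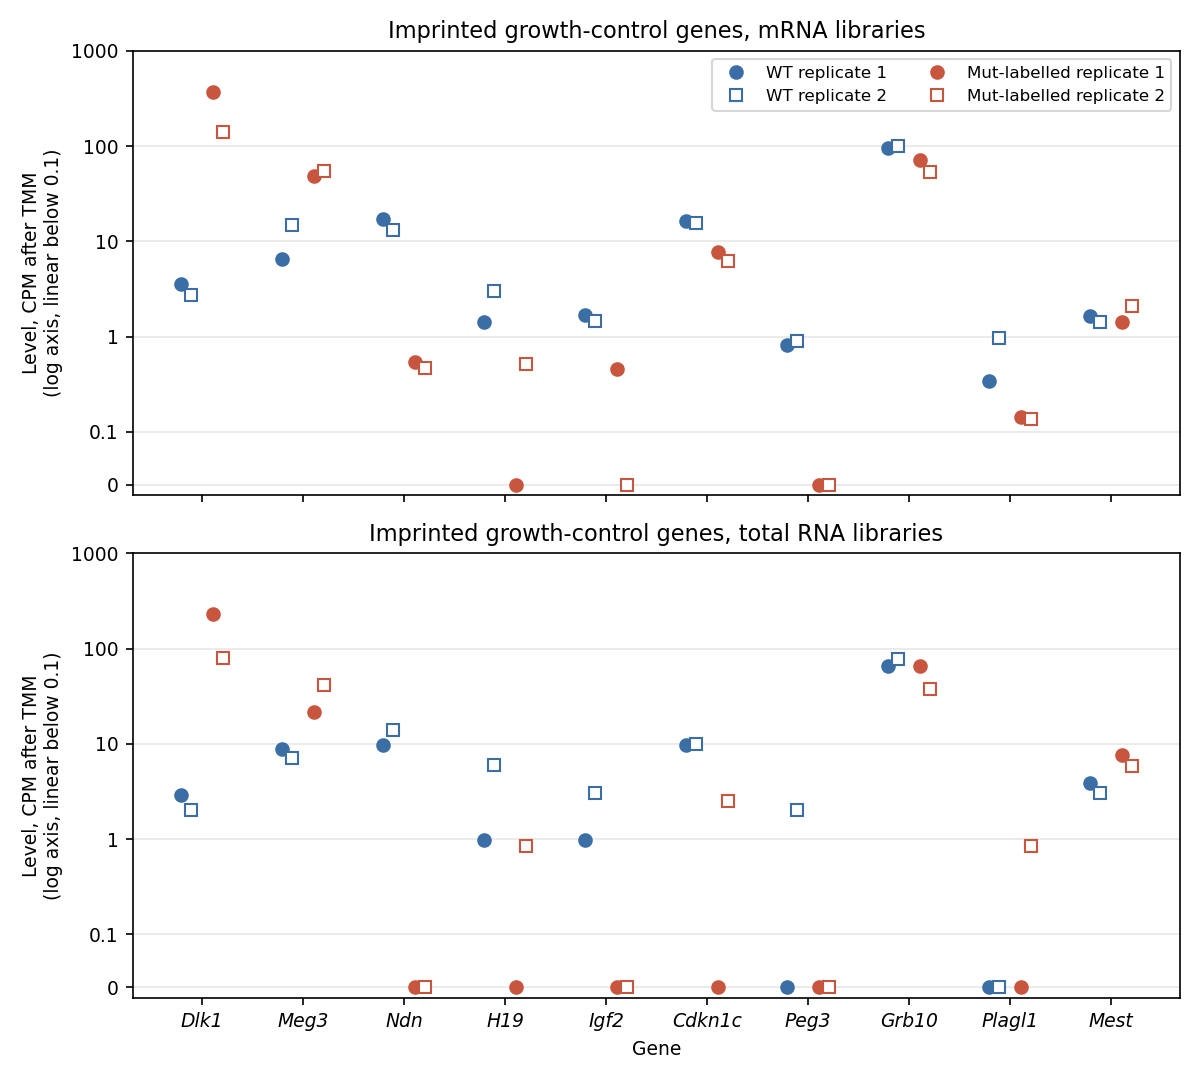
Level of each imprinted growth-control gene in each library, in CPM after TMM scaling on a log axis that is linear below 0.1, for mRNA libraries (upper) and total RNA libraries (lower). Points are single libraries, blue for WT and red for Mut-labelled; in the mRNA libraries Dlk1 and Meg3 lie higher in both Mut-labelled libraries, and 7 genes lie lower in both.

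Dlk1 and Meg3 belong to 1 imprinted cluster on chromosome 12 and are read from opposite parental copies. Dlk1 encodes a transmembrane protein with EGF-like repeats that resembles the Notch ligands. Its mRNA level was 3.56 and 2.75 CPM in the WT pair, and 371 and 141 CPM in the Mut-labelled pair. Both Mut-labelled libraries were far above both WT libraries, and they differed from each other 2.63-fold. The change was 81.2-fold (log2 fold change 6.34, SE 0.55, edgeR adjusted p = 0.00759). Without Mut-labelled replicate 1 the log2 fold change was 5.48, and Dlk1 remained called under each of the 9 alternative settings.

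Meg3 is a long non-coding RNA expressed from the maternal copy of the same cluster. Its mRNA level was 6.59 and 15.0 CPM in the WT pair, and 49.0 and 54.3 CPM in the Mut-labelled pair. The 2 WT libraries differed 2.28-fold and both stayed below the Mut-labelled ones. The change was 4.79-fold (log2 fold change 2.26, SE 0.39, edgeR adjusted p = 0.043). The log2 fold change was 2.98 without WT replicate 2. The call was lost without Mut-labelled replicate 2 (edgeR adjusted p = 0.0611) and when ERCC spike-ins set the scale (log2 fold change 1.73, edgeR adjusted p = 0.999). Another gene, Gm26906, overlaps Meg3 on the other strand in GENCODE M21, and whether counting used strand is not given.

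The other genes of the cluster that were tested had values above 0 that did not pass, and under ERCC scaling Begain was at -0.37. Rtl1, a retrotransposon-derived gene expressed from the paternal copy, had 3 and 0 counts in the WT pair, and 14 and 19 in the Mut-labelled pair (log2 fold change 3.44, edgeR adjusted p = 0.329). Dio3, the deiodinase that inactivates thyroid hormone, stood at 0.738 and 1.39 CPM in the WT pair, and 3.06 and 2.60 CPM in the Mut-labelled pair (log2 fold change 1.41, edgeR adjusted p = 0.223), and its total RNA value was -0.37 (edgeR adjusted p = 0.873). Begain, a neighbour of Dlk1, had a log2 fold change of 0.01 (edgeR adjusted p = 0.995).

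Ndn encodes necdin, a growth suppressor of the MAGE family that restrains cell-cycle entry. Its mRNA level was 17.2 and 13 CPM in the WT pair, and 0.543 and 0.465 CPM in the Mut-labelled pair. The Mut-labelled libraries had 19 and 17 counts, close to each other and far below the 651 and 497 of WT. The level was 29.7-fold lower (log2 fold change -4.89, SE 0.34, edgeR adjusted p = 0.00556). Ndn remained called under each of the 9 alternative settings, with log2 fold changes between -5.26 and -4.68. In its cluster, the Prader-Willi region, Ndn was the called gene among 5 tested. Atp10a, a lipid-transporting ATPase and the most abundant there, had a log2 fold change of 0.63 (edgeR adjusted p = 0.114). Magel2, the neighbour of Ndn, had 0 counts in the 4 mRNA libraries.

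A list of relatives and partners of necdin also held Ndn itself. Of its 8 tested genes, Ndn and Maged1 fell and none rose (1.89% of all genes were called lower). Ndn was called above, so Maged1 was the call that the list added. Maged1, another MAGE family member, stood at 89.3 and 101 CPM in the WT pair, and 32.7 and 27.6 CPM in the Mut-labelled pair. Its groups were well apart (log2 fold change -1.66, SE 0.15, edgeR adjusted p = 0.0081). Trp53, the most abundant of the list, encodes the p53 tumour suppressor and had a log2 fold change of -0.00 (edgeR adjusted p = 0.998).

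Igf2 encodes a fetal growth factor and H19 is the non-coding RNA that shares its imprinting control region. Igf2 had 64 and 56 counts in the WT pair, and 16 and 0 in the Mut-labelled pair. H19 had 54 and 115 counts in the WT pair, and 0 and 19 in the Mut-labelled pair. Each gene was thus lower in both Mut-labelled libraries and unseen in 1 of them, a different library for each. The log2 fold changes were -2.78 for Igf2 (SE 1.34, edgeR adjusted p = 0.419) and -3.07 for H19 (SE 1.33, edgeR adjusted p = 0.358). Without the Mut-labelled library at 0, the log2 fold change was -1.77 for Igf2 (edgeR adjusted p = 0.269) and -2.09 for H19 (edgeR adjusted p = 0.191). Without the Mut-labelled library that held reads, the lone library left was at 0 by construction and was assumed to vary like the WT pair, and edgeR called the gene (adjusted p = 0.0154 for Igf2 and 0.0252 for H19).

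Grb10 encodes an adaptor protein that dampens insulin and IGF1 receptor signalling. Its mRNA level was 94.5 and 100.1 CPM in the WT pair, and 72.0 and 53.5 CPM in the Mut-labelled pair. The groups did not overlap, but the log2 fold change of -0.63 (SE 0.17) did not pass (edgeR adjusted p = 0.135). It passed without Mut-labelled replicate 1 (log2 fold change -0.86, edgeR adjusted p = 0.0381) and with DESeq2 (adjusted p = 0.0313).

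The wider IGF and insulin list had 25 tested genes, of which 1 fell and none rose (4%, near the 3.64% of all genes called), with a median log2 fold change of 0.09. The gene that fell was Igf2r, the imprinted receptor that clears IGF2 from the cell surface. It stood at 48.0 and 50.5 CPM in the WT pair, and 26.8 and 20.7 CPM in the Mut-labelled pair (log2 fold change -1.05, SE 0.19, edgeR adjusted p = 0.0443). The call was lost without WT replicate 1 (edgeR adjusted p = 0.0639), without WT replicate 2 (0.0651), without Mut-labelled replicate 2 (0.0874) and under ERCC scaling (log2 fold change -1.51, edgeR adjusted p = 0.999). The antisense RNA Airn overlaps Igf2r on the other strand. Airn had 67 and 84 counts in the WT pair, and 12 and 10 in the Mut-labelled pair (log2 fold change -2.67, edgeR adjusted p = 0.0707), and reads of the pair cannot be told apart if strand was not used.

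**Figure D2:**
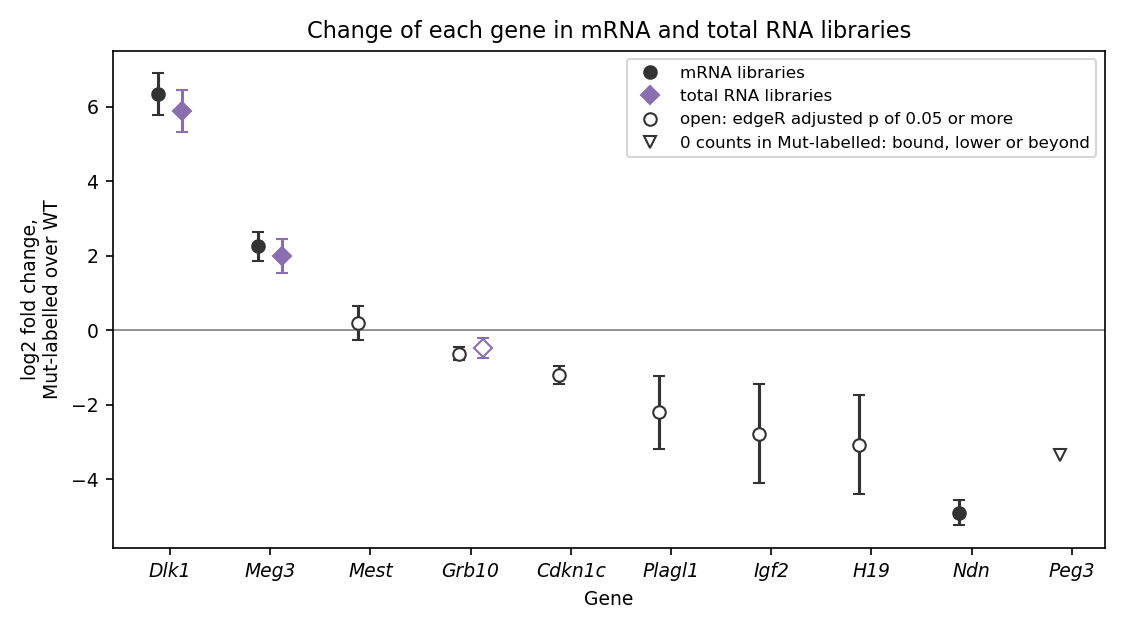
Log2 fold change of each imprinted growth-control gene, Mut-labelled over WT, with its standard error, in mRNA libraries (circles) and, for the 3 genes tested there, total RNA libraries (diamonds). Filled symbols are called genes, Dlk1 and Meg3 in both kinds of library and Ndn in mRNA libraries; the triangle for Peg3 marks a bound set by 3 counts in each library.

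Cdkn1c encodes p57, an inhibitor of cyclin-dependent kinases that holds stem cells out of the cell cycle. Its mRNA level was 16.3 and 15.6 CPM in the WT pair, and 7.77 and 6.21 CPM in the Mut-labelled pair. Both Mut-labelled libraries were lower and each pair was tight. The log2 fold change was -1.19 (SE 0.24, edgeR adjusted p = 0.0678), and DESeq2 called it (adjusted p = 0.00177). In its cluster, which holds the potassium channel gene Kcnq1, none of 11 tested genes was called by edgeR, and 4 had an unadjusted p under 0.05. Cd81, the most abundant of them, encodes a tetraspanin and had a log2 fold change of 0.53 (edgeR adjusted p = 0.256). DESeq2 called 4 of the 10 growth-control genes lower, against 1 by edgeR. Of all genes, in either direction, it called 1500 against 624, and how many of the 1500 were lower was not worked out.

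Of the 6 tested inhibitors of cyclin-dependent kinases, 1 rose (1.75% of all genes were called higher) and none fell, with a median log2 fold change of 0.55 and Cdkn1c as the 1 negative value; under ERCC scaling Cdkn1b (-0.01) and Cdkn2c (-0.30) were negative too. Cdkn1a, which encodes p21, stood at 46.5 and 45.5 CPM in the WT pair, and 79.8 and 72.7 CPM in the Mut-labelled pair. The groups were apart in mRNA libraries (log2 fold change 0.73, SE 0.13, edgeR adjusted p = 0.0429). That call was lost on leaving out any 1 of the 4 libraries (WT replicate 1, 0.176; WT replicate 2, 0.16; Mut-labelled replicate 1, 0.116; Mut-labelled replicate 2, 0.0724, edgeR adjusted p) and under ERCC scaling (log2 fold change 0.33, edgeR adjusted p = 0.999). In total RNA libraries Cdkn1a had 192, 105, 134 and 101 CPM in the WT and then the Mut-labelled pair, with overlapping groups (log2 fold change -0.36, edgeR adjusted p = 0.542).

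Peg3 and Plagl1 encode zinc-finger transcription factors, and Plagl1 is known to act on other imprinted genes. Peg3 had 31 and 34 counts in WT replicates 1 and 2 and 0 in both Mut-labelled libraries. Against the floor of 3 counts per library its level was at least 10.2-fold lower, and the test did not call it (edgeR adjusted p = 0.0724), whereas DESeq2 did (adjusted p = 0.00408), as did edgeR under ERCC scaling (adjusted p = 0.0366). Plagl1 had 13 and 37 counts in WT replicates 1 and 2 and 5 in each Mut-labelled library. The 2 WT libraries differed 2.83-fold in CPM (log2 fold change -2.20, SE 0.98, edgeR adjusted p = 0.371). Without WT replicate 2 the log2 fold change was -1.26, and under ERCC scaling it was -2.83. Phactr2, its neighbour and the most abundant gene of that cluster, had a log2 fold change of 0.28 (edgeR adjusted p = 0.691).

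Mest encodes a protein of the hydrolase fold family. Its mRNA level was 1.66 and 1.41 CPM in the WT pair, and 1.43 and 2.11 CPM in the Mut-labelled pair. The groups overlapped (log2 fold change 0.20, SE 0.45, edgeR adjusted p = 0.917), and the sign changed under ERCC scaling and without Mut-labelled replicate 2. Mest overlaps Copg2 on the other strand, a more abundant gene at 88.3 to 95.4 CPM over the 4 mRNA libraries (log2 fold change 0.02, edgeR adjusted p = 0.976).

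Between genes, levels were compared as CPM per kilobase of exon (GENCODE M21 exon lengths) in mRNA libraries. In WT the means ran from Grb10 at 10.7, Cdkn1c at 7.83 and Ndn at 4.08 down to H19 at 0.901, Meg3 at 0.596, Dlk1 at 0.557, Mest at 0.389, Igf2 at 0.275, Plagl1 at 0.0838 and Peg3 at 0.064 CPM per kilobase. The WT libraries of H19, Meg3 and Dlk1 overlapped, as did those of Meg3 with Mest and of Plagl1 with Peg3. In Mut-labelled libraries the order began with Dlk1 at 45.3, Grb10 at 6.90, Cdkn1c at 3.43, Meg3 at 2.86 and Mest at 0.448 CPM per kilobase. Ndn followed at 0.136, H19 at 0.106, Igf2 at 0.04, Plagl1 at 0.0179 and Peg3 at 0 CPM per kilobase, and there the libraries of Ndn and H19 overlapped, as did those of H19, Igf2 and Plagl1. Dlk1 thus stood below H19 and Meg3 in WT means and above all 9 others in Mut-labelled means.

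The Notch list, which also held Dlk1, had 19 tested genes, with a median log2 fold change of -0.17. Of these Dlk1, called above, rose, and Notch1 and Jag2 fell (3.64% of all genes were called). Notch1 encodes a receptor of this pathway. It stood at 91.4 and 127 CPM in the WT pair, and 34.5 and 48.3 CPM in the Mut-labelled pair (log2 fold change -1.40, SE 0.23, edgeR adjusted p = 0.039). Jag2, which encodes a Notch ligand, stood at 26.2 and 28.8 CPM in the WT pair, and 9.20 and 9.41 CPM in the Mut-labelled pair (log2 fold change -1.56, SE 0.20, edgeR adjusted p = 0.0184). Hes1, a transcriptional target of the pathway, had a log2 fold change of 1.01 in mRNA (edgeR adjusted p = 0.127), while the total RNA value was -0.78 (edgeR adjusted p = 0.327). In total RNA libraries Notch1 fell (log2 fold change -1.04, edgeR adjusted p = 0.00147), and Jag2 did not pass (-0.41, edgeR adjusted p = 0.699). For Jag2 the total RNA change minus the mRNA change was 1.19 (SE 0.39, unadjusted p = 0.0111, edgeR adjusted p = 1, and 0.445 with the sorted sample as a block). Under ERCC scaling the log2 fold changes in mRNA libraries were larger in size and had larger errors, so that the calls were lost (each edgeR adjusted p = 0.999). They were -1.76 for Notch1 (SE 1.07), -1.96 for Jag2 (SE 1.09) and -2.11 for Maged1 (SE 1.08).

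**Figure D3:**
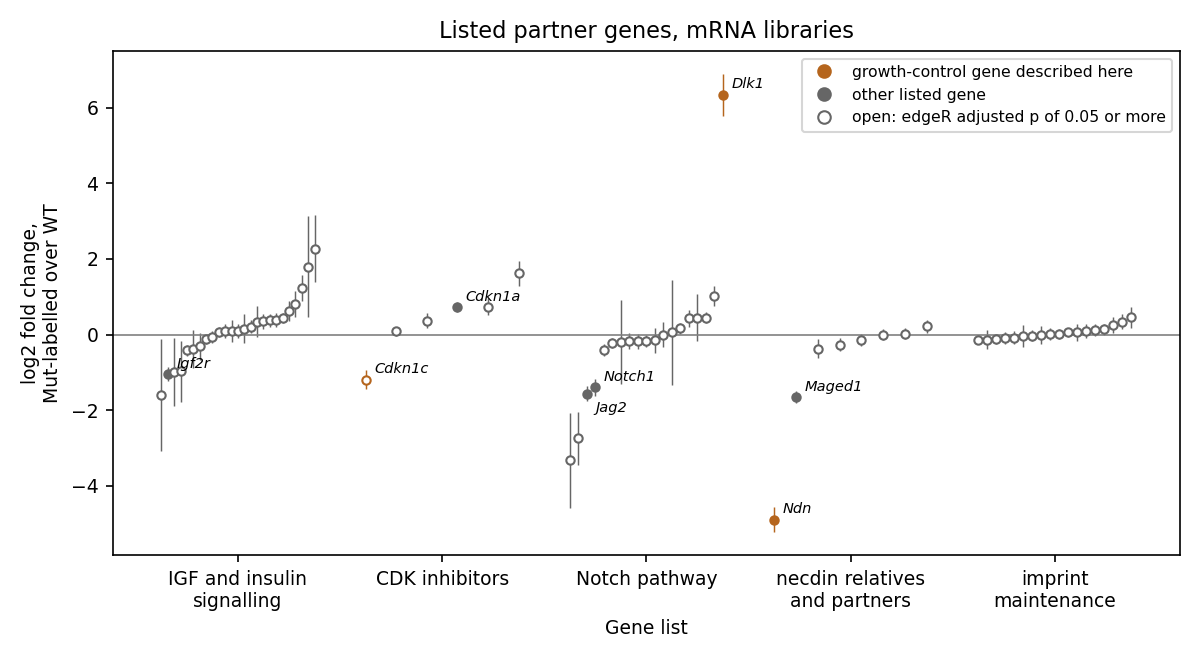
Log2 fold change, Mut-labelled over WT, of each tested gene of 5 lists in the mRNA libraries, with standard errors. Filled symbols are called genes, named on the plot with Cdkn1c; the genes of the imprint maintenance list lie between -0.13 and 0.45.

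Factors that set or keep imprints were a further list, among them DNA methyltransferases and the corepressor Trim28. None of its 18 tested genes was called in mRNA libraries by edgeR, and 0 had an unadjusted p under 0.05. Trim28, the most abundant, stood at 874 and 779 CPM in the WT pair, and 823 and 738 CPM in the Mut-labelled pair (log2 fold change -0.08, edgeR adjusted p = 0.908). In total RNA libraries 2 of 18 rose, Tet2 (log2 fold change 1.03, edgeR adjusted p = 0.00805) and Tet3 (0.72, edgeR adjusted p = 0.00979), which encode enzymes that oxidise methylated DNA. Background for a call upward there was 2.54%. In mRNA libraries their log2 fold changes were 0.45 and 0.25 (edgeR adjusted p = 0.577 and 0.686).

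Beyond the 10 genes, 67 other imprinted genes from the list were in the table and 53 were tested in mRNA libraries. Of these 1 rose and 1 fell, 3.77% beside the 3.64% of all genes, with a median log2 fold change of 0.03. Igf2r fell. Kcnk9, a potassium leak channel, had 0 counts in the WT pair, and 59 and 53 in the Mut-labelled pair, at least 19.9-fold higher (edgeR adjusted p = 0.0351). In total RNA libraries Kcnk9 had 0, 0, 2 and 1 counts in the same order of samples. There, 35 of the other imprinted genes were tested, Igf2r fell (log2 fold change -1.77, edgeR adjusted p = 0.000197) and Slc22a3, an organic cation transporter, rose (0.69, edgeR adjusted p = 0.0149; not called without WT replicate 1 or Mut-labelled replicate 2, under ERCC scaling or with DESeq2).

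**Figure D4:**
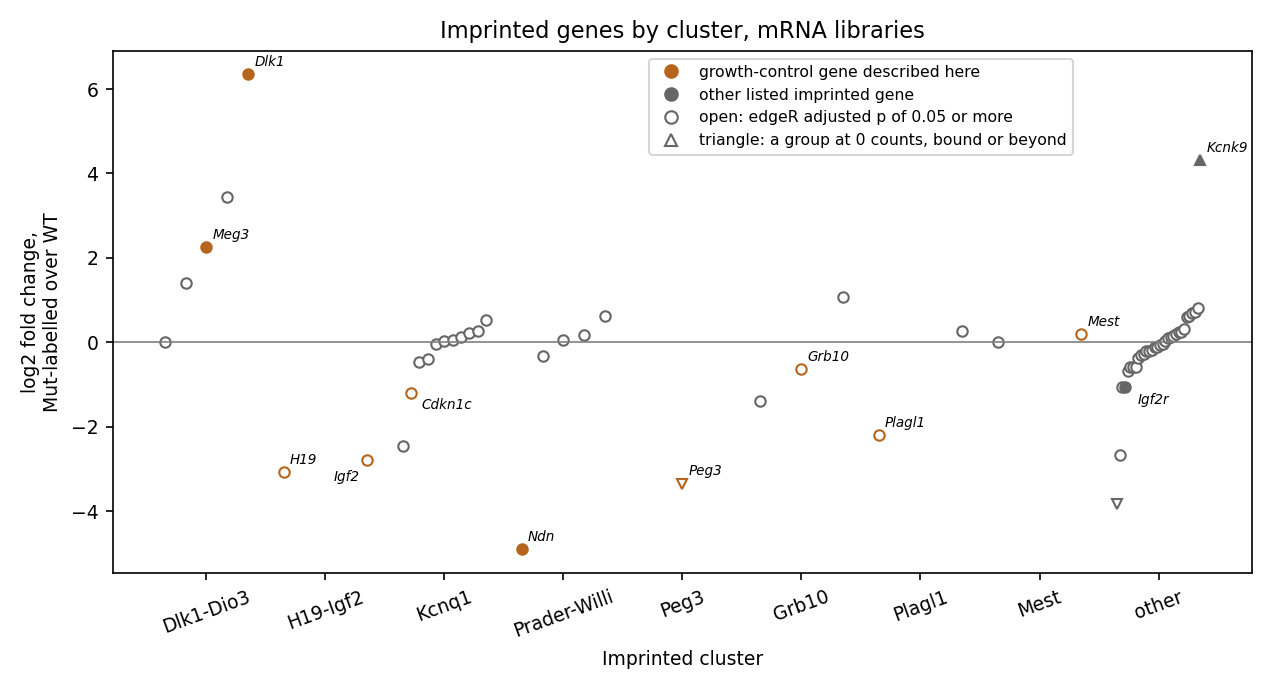
Log2 fold change, Mut-labelled over WT, of the 63 tested imprinted genes in the mRNA libraries, by cluster; brown points are the 10 growth-control genes. Filled symbols are called; triangles are bounds for genes at 0 counts in a group. All 5 tested genes of the Dlk1-Dio3 cluster are above 0 with TMM scaling (Begain is not under ERCC scaling), and in the Prader-Willi cluster Ndn lies at -4.89.

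The total RNA libraries held far fewer gene counts, so 3 of the 10 genes passed the filter and were tested there, Dlk1, Meg3 and Grb10. Both Dlk1 and Meg3 rose (4.22% of 10546 genes were called, 2.54% higher and 1.68% lower). Dlk1 had 3, 2, 215 and 96 counts in the WT and then the Mut-labelled pair (log2 fold change 5.89, SE 0.57, edgeR adjusted p = 2.4e-06). For both genes the Mut-labelled libraries were above the WT libraries (22.5% of genes tested were so, and 44% did not overlap in either direction). For Dlk1, as in mRNA, Mut-labelled replicate 1 was the highest. Without Mut-labelled replicate 1 the log2 fold change was 4.97, and without replicate 2 it was 6.49.

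Meg3 had 9, 7, 20 and 49 counts in the same order (log2 fold change 1.99, SE 0.45, edgeR adjusted p = 0.0118). Here Mut-labelled replicate 2 was the highest. The call was lost without that library (log2 fold change 1.44, edgeR adjusted p = 0.43), under ERCC scaling (0.78, edgeR adjusted p = 0.305) and with DESeq2 (adjusted p = 0.295). Grb10 had 67, 77, 61 and 45 counts, with overlapping levels in CPM (log2 fold change -0.49, SE 0.27, edgeR adjusted p = 0.434).

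The 7 other genes were too shallow for the filter. Ndn had 10 and 14 counts in WT and 0 in both Mut-labelled libraries, at least 4.14-fold lower against the 3-count floor. Cdkn1c had 10 and 10 counts against 0 and 3, a ratio of WT to Mut-labelled of 6.99 (exact 95% interval 2.07 to 36.7, counting error only). H19 had 1 and 6 counts against 0 and 1, a ratio of 7.34 with an interval of 0.943 to 331. For Igf2 (1, 3, 0 and 0), Peg3 (0, 2, 0 and 0), Plagl1 (0, 0, 0 and 1) and Mest (4, 3, 7 and 7) the counts were at or near the floor and no fold is given.

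An interaction term asked whether the change differed between mRNA and total RNA libraries, and none of 17416 genes was called by edgeR (687 had an unadjusted p under 0.05, and DESeq2 called 11). That fit took the 8 libraries as independent, although same-named libraries were read as 1 sorted sample. With the sorted sample as a block, 111 genes were called, among them none of the 10 growth-control genes. For Dlk1 the total RNA change minus the mRNA change was -0.34 (SE 1.53, edgeR adjusted p = 1), for Meg3 -0.21 (SE 0.67, adjusted p = 1) and for Grb10 0.19 (SE 0.35, adjusted p = 1). These errors leave room for sizeable differences of Dlk1 between the kinds of library. Cdkn1a had -1.04 (SE 0.34, unadjusted p = 0.0109, edgeR adjusted p = 1) and was called with the block (-1.01, SE 0.21, edgeR adjusted p = 0.000661).

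Genes whose profile over the 4 mRNA libraries was nearest to a called gene were found by the Euclidean distance of centred log2 CPM with a prior count of 2. Nearest to Dlk1 were Slfn1 (distance 1.22), Cd200r4 (1.45) and Syt13 (1.54). Slfn1 had 0 counts in the WT pair, and 154 and 30 in the Mut-labelled pair. Nearest to Meg3 were Nostrin (0.295), Ccl2 (0.408) and B3galt5 (0.462), with log2 fold changes of 2.28, 2.10 and 1.93 that did not pass (edgeR adjusted p = 0.137, 0.0991 and 0.14). Nearest to Ndn were Cyp11a1 (0.271), Uchl1 (0.557) and Car1 (0.598), all called lower in the same fit, and Car1 is a red cell carbonic anhydrase. These distances rest on 4 libraries, and the profile of each called gene separates the groups by construction.

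Markers of other cell types are given beside these changes, since bulk counts cannot tell fewer cells of a type from less RNA per cell. For the calls per list in mRNA libraries, the shares over all genes tested were 1.75% called higher and 1.89% called lower. Stromal genes summed to 224 to 256 CPM in WT and 168 to 215 CPM in Mut-labelled mRNA libraries, with 2 of 15 called lower (Bgn and Fbn1), none higher and Lum at 0. Col1a1, a collagen gene of stroma, had 55 counts in Mut-labelled replicate 2 and 1725 to 2047 in the others. Erythroid genes summed to 1005 to 1285 CPM in WT and 265 to 401 CPM in Mut-labelled libraries, with 4 of 12 called lower. Megakaryocyte genes summed to 947 to 1022 and 2177 to 2423 CPM, with 4 of 11 called higher and 1 lower. Mature neutrophil genes summed to 133 to 183 and 218 to 661 CPM, with 2 of 11 called higher and a median log2 fold change of 2.80. In 10 of the 11 both Mut-labelled libraries were above both WT libraries (21.4% of all genes tested). The lowest log2 fold change of the list was -0.30. In total RNA libraries 6 of 7 tested were called higher (2.54% of all genes). Mut-labelled replicate 1, with the higher Dlk1 level of the pair, had the higher mRNA sum for neutrophil and megakaryocyte genes. It also had the higher sum for stromal, erythroid, endothelial, macrophage, and T and NK cell genes. Mut-labelled replicate 2 had the higher sum for mast cell and basophil genes and for B cell genes. Endothelial genes summed to 522 to 566 and 536 to 551 CPM, with Kdr called higher and Vwf lower. Macrophage genes summed to 155 to 177 and 138 to 142 CPM, with 1 of 11 called lower (H2-Aa). Mast cell and basophil genes summed to 773 to 841 and 1218 to 1606 CPM, with 3 of 9 called higher (Cpa3, Hdc and Il1rl1) and 3 lower (Mcpt8, Prss34 and Prg2). T and NK cell genes summed to 85.7 to 97.5 and 36.0 to 38.5 CPM, with 2 of 8 called lower (Lck and Nkg7). The 8 tested genes were split, 4 above 0 and 4 below, with a median log2 fold change of 0.39. Nkg7 was the most abundant of them. B cell genes summed to 1168 to 9647 and 497 to 2166 CPM, with 1 of 8 called lower (Ighm). In mRNA libraries the most abundant genes were Gata2 (mast cell and basophil), Itga2b (megakaryocyte), Eng (endothelial), Car2 (erythroid), Pdgfrb (stromal), Elane (neutrophil), H2-Ab1 (macrophage) and Igkc (B cell). In total RNA libraries Gata2 alone was 407 and 424 of 541 and 593 CPM in the WT pair. It was 406 and 525 of 810 and 1107 CPM in the Mut-labelled pair. A sum is therefore not a measure of the amount of a cell type. The part of these cell types in the changes of Dlk1, Meg3 and Ndn was not tested.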

How the data were processed

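The 10 genes and every gene list were chosen with earlier results of these data known. The table deposited by the authors holds raw counts, whole numbers per gene and library. Per the submitters' processing notes, reads were handled on build mm9 with TopHat, featureCounts and edgeR among the tools named. The sources used here give no versions, annotation release or strand setting. Gene symbols (32919 of 37991 rows), exon lengths and overlaps came from GENCODE M21, and its coordinates were not mixed with mm9. ERCC (92) and rRNA (3) rows were left out of totals and tests; rRNA took 93.3 to 94.5% of total RNA counts. Counting intervals and floors cover counting error only.

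WT and Mut-labelled libraries were compared by edgeR (version 4.0.16, R 4.3.3; TMM scaling, filterByExpr, two-sided quasi-likelihood test, Benjamini-Hochberg adjustment, called under 0.05) within each kind of library, and as an interaction over 8 libraries. Standard deviations are over 2 libraries, and the SE of a log2 fold change is its size over the root of edgeR's F. Fold changes at 0 counts are bounds from 3 counts per library. Named genes were the 10 genes, called genes of the lists, the most abundant gene of a list without a call, and the 3 nearest profiles of each called gene (mean CPM of at least 1); other list genes named in the text were added after their values were seen. Alternatives were RLE scaling, ERCC scaling, DESeq2 1.42.0, no filter, a replicate block and leaving out each library. Same-named mRNA and total RNA libraries deviated together (r = 0.374 for WT and 0.43 for Mut) and were read as 1 sorted sample. Libraries of a group differed beyond sampling noise (chi-square per degree of freedom 65.1, 60.9, 3.13 and 2.60).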

Additional observations from a re-analysis of the deposited data

How the results depend on the processing

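Groups of 2 libraries were too small for a check on outlying values, and the depth of total RNA libraries left 7 of the 10 genes untested. Of 10 imprinted growth-control genes, called higher in mRNA libraries were 2, and 1 under ERCC scaling (1 to 2 on leaving out a library). Called lower was 1, and 2 under ERCC scaling, 4 with DESeq2 and 5 with the replicate block (Ndn, H19, Cdkn1c, Peg3 and Grb10; 1 to 3 on leaving out a library). Of other imprinted genes, 1 was called higher, 5 with DESeq2 and 7 with the block (1 to 2 on leaving out a library), and 1 lower, 5 with DESeq2 and 9 with the block. All genes called, in either direction, numbered 624, 170 under ERCC scaling, 1500 with DESeq2 and 2870 with the block. How many of these were lower was not worked out for DESeq2 and the block. In total RNA libraries the same counts were 2 of the 10 genes higher (1 under ERCC scaling, 1 with DESeq2, 1 to 2 on leaving out a library) and 0 lower (2 with no filter, 0 to 1 on leaving out a library). Other imprinted genes there numbered 1 higher (0 under ERCC scaling, 0 with DESeq2, 2 with the block, 0 to 1 on leaving out a library) and 1 lower (2 with no filter, 3 with the block, 1 to 3 on leaving out a library). All genes called there, in either direction, were 445, 170 with DESeq2, 724 with no filter and 870 with the block. The interaction called 0 genes, 11 with DESeq2 and 111 with the block of sorted sample (0 to 1 on leaving out a library). The block takes replicate numbers as pairs; the labels do not say that they pair WT with Mut samples, and same-numbered samples deviated together at r = 0.323 (mRNA) and 0.22 (total RNA). In the interaction the block of sorted sample called Cdkn1a (-1.01, edgeR adjusted p = 0.000661).

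Among the 10 genes and the called list genes, signs that changed were those of Mest in mRNA libraries (-0.028 under ERCC scaling, -0.0968 to 0.453 on leaving out a library), of Cdkn1a in total RNA libraries (-0.715 to 0.144 on leaving out a library), and, in the interaction, of Meg3 (-1.15 to 0.444 on leaving out a library) and Grb10 (-0.341 under ERCC scaling, -0.00716 to 0.280 on leaving out a library). The cause was not tested. Of other listed genes, Begain (-0.37), Cdkn1b (-0.01) and Cdkn2c (-0.30) turned negative under ERCC scaling in mRNA libraries. Of the gene values recomputed in mRNA libraries, 117 kept their direction and side of the threshold, 14 lost and 11 gained a call and 2 changed sign.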

Other observations

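Phlda2, a placental growth regulator of the Cdkn1c cluster, had 208 and 303 counts in the WT pair, and 24 and 64 in the Mut-labelled pair of the mRNA libraries (log2 fold change -2.45, edgeR adjusted p = 0.0755). Nespas, an antisense RNA of the Gnas cluster, had 67 and 24 counts in WT and 0 in both Mut-labelled libraries, at least 14.3-fold lower (edgeR adjusted p = 0.0735). Both were chosen after their values were seen.

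Between Meg3 and Dio3 the annotation names 63 further rows, with Rtl1, Rian and Mirg left aside, and 10 of them had counts in these libraries. The rows were taken by position and not by type. Those with counts were microRNA and small nucleolar RNA genes and the pseudogene Gm25224. This set was also chosen after its values were seen. Summed counts were 4, 15, 38 and 45 in the WT pair and then the Mut-labelled pair of the mRNA libraries, and 1, 0, 2 and 5 in total RNA libraries. Mir1247 alone held 4, 13, 19 and 19 of the mRNA counts in the same order. No test was made on them.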
